A study of Mus musculus with 42 samples.

Results

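The genes described here are 8 genes that place lymphocytes in a tissue or let them leave it: the chemokine receptors Cxcr3, Cxcr4, Cxcr6 and Ccr2, the sphingosine 1-phosphate receptors S1pr1 and S1pr5, the transcription factor Klf2 and the retention molecule Cd69. They were chosen by name, are 8 of the 54353 genes shared by the bulk RNA-seq count tables and of the 35237 genes of the joined single-cell table, and each had 1 entry in both. The study asked how tissue-resident NK cells (trNK) of the mouse uterus differentiate during decidualization, the remodelling of the uterine lining in early pregnancy.

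All mice were C57BL/6 females without a genetic change. The 34 bulk libraries form 17 groups of 2 in 4 experiments. Uterine trNK of virgin mice and of mice at gestation day (gd) 6.5 and gd8.5 were sorted as CD45+NK1.1+NKp46+CD49a+ cells lacking CXCR6. The sort also left out lineage-positive cells, among them those with CD3, CD5 or Gr-1, the last a marker of neutrophils and many monocytes. From the same gate at gd8.5, trNK-V, trNK-D and trNK-T were taken as the cells with low, intermediate and high CD55 and 4-1BB. For both cultures the study describes sorted trNK-V of gd6.5 mice in medium with IL-15, whereas its culture methods name trNK of virgin or gd6.5 mice. In a 3-day culture, live NK1.1+ cells were left without IL-21, given 20 ng/ml IL-21, or given IL-21 with 1 μM of the STAT3 inhibitor Stattic. By the sample labels, the time course held trNK in 10 ng/ml IL-15 with or without 20 ng/ml IL-21 for 0, 6, 24 or 72 h, and its protocol names 15 ng/ml. The single cells were CD45+NK1.1+NKp46+ cells of virgin and gd8.5 uteri, mixed before capture, and the tables used here do not say which cell came from which mice. The study calls its bulk data representative of independent experiments, but the labels do not say whether the 2 libraries of a group came from separate animals or cultures, so the p-values measure the spread between libraries, which may be technical.

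Chemokine receptors draw lymphocytes toward a ligand source. CXCR3 responds to CXCL9, CXCL10 and CXCL11, CXCR4 to CXCL12, CXCR6 to CXCL16, and CCR2 to CCL2 and related chemokines. Leaving a tissue depends on sphingosine 1-phosphate, read by S1PR1 in T and B cells and mainly by S1PR5 in circulating NK cells. KLF2 drives transcription of S1pr1, and CD69 holds S1PR1 inside the cell, so tissue-resident lymphocytes typically have CD69 and little KLF2 and S1PR1.

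The sequence before the transcription start was read for 6 of the 8 genes from RefSeq (GRCm38.p6). S1pr1 and Cd69 had no entry. In the 250 bases before each start, the KLF box CACCC (or GGGTG on the other strand) occurred 2 times at S1pr5, once at Cxcr4 and once at Klf2, and in none of the windows of Cxcr3, Cxcr6 and Ccr2. The gene models of the count tables begin earlier than these starts for 4 genes and cover 233 of the 250 bases at Ccr2, 122 at Cxcr3, 29 at Klf2, its KLF box included, and 2 at Cxcr6. It is a common motif, held by 52.0% of 32851 such windows. The T-box core CACACC (16.3% of windows, and able to overlap the KLF box) and the STAT site TTCNNNGAA (7.02%) were in none of the 6. Windows of 3 genes are printed as those of genes that were high in conventional NK-like cells (S1pr5, Cxcr4) or low in them (Cxcr6) in the single-cell data, with KLF boxes in capitals, on the strand of each gene. They lie at chr9:21248444-21248693 (minus strand), chr1:128592300-128592549 (minus strand) and chr9:123806227-123806474 (plus strand), before the gene models of the count tables. A match describes letters and not a bound site.
S1pr5: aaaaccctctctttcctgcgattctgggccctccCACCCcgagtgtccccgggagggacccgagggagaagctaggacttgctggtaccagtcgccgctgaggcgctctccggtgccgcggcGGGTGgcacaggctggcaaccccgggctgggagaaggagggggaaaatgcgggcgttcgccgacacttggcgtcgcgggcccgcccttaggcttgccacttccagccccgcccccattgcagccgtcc
Cxcr4: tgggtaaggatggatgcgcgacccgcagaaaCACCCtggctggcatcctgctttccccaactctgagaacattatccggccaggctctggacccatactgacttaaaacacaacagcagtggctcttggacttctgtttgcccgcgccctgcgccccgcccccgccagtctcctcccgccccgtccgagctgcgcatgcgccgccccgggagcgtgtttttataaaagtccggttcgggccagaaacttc
Cxcr6: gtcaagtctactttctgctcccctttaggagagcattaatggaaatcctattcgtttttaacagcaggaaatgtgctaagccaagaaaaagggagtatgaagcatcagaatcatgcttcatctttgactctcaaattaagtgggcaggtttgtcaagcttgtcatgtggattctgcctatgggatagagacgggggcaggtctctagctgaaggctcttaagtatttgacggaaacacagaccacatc

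Library totals ran from 11862089 to 66468883 counts. Levels are given as RPKM, reads per kilobase of gene in 1000000 counted reads. The trNK genes Ncr1, Klrb1c, Eomes and Itga1 were detected in each of the 34 libraries, with Ncr1 between 46.8 and 1030 RPKM. Of the 6 T cell genes, Cd3e, Cd4 and Cd8a had medians of 0 and highest levels of 6.42, 0.0542 and 2.11 RPKM, while Cd3d, Cd3g and Trac had medians of 21.2, 47.9 and 19.0 RPKM. The virgin libraries stood apart from each other. Gzmc, a granzyme of activated trNK, was at 22.4 RPKM in virgin replicate 1 and at 8387 RPKM in virgin replicate 2, against 3353 to 8123 RPKM in the 4 pregnant libraries. Whether virgin replicate 2 matches its label was not tested. The counts of virgin replicate 1 covered 55573 genes, against 54446 for each other library, and 99.9% of its counts lay in the shared genes. Whether virgin replicate 1 was counted in another way was not tested. Each fold against virgin cells given here is also given without each virgin library, so those without replicate 2 rest on replicate 1 alone. Of the 5 neutrophil or monocyte genes, Lyz2 was at 19.3 and 269 RPKM in trNK-V, 212 and 303 in trNK-D and 1.97 and 4.61 in trNK-T, Plac8 was at 128 and 98.3, 135 and 185, and 447 and 380, and S100a8, S100a9 and Csf3r were at or below 0.956 in all 34 libraries.

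The members fell into 3 ranges of level. Ccr2 was the highest, from 92.0 to 393 RPKM with a median of 209 over the 34 libraries. Cxcr3 (2.46 to 187, median 32.5), Cd69 (14.9 to 77.3, median 37.3) and Cxcr6 (0 to 106, median 14.9) were intermediate. Cxcr4, Klf2, S1pr1 and S1pr5 were low, with medians of 0.199, 0.0636, 0 and 0 RPKM. S1pr1 and S1pr5 had no count in 23 of the 34 libraries each, Klf2 in 13, Cxcr4 in 7 and Cxcr6 in 3. The low members often appeared in 1 library of a pair: S1pr1 had 179 counts in trNK-T replicate 1 and none in replicate 2.

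**Figure D1:**
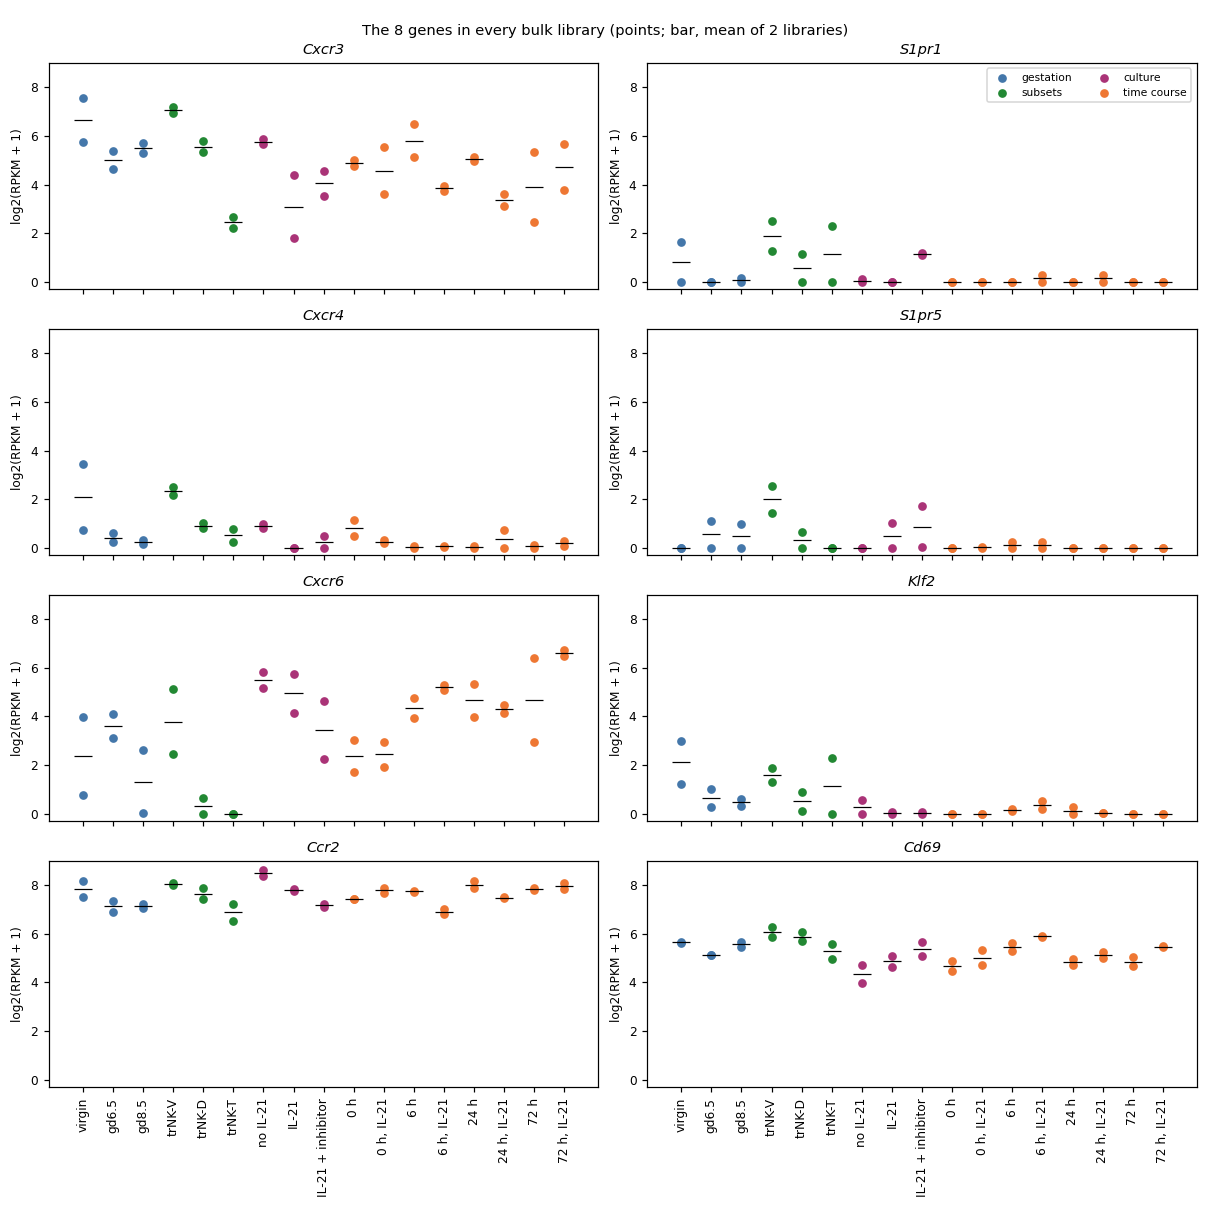
Level of each of the 8 genes in every bulk library, as log2(RPKM + 1) on the vertical axis, with the 17 groups on the horizontal axis coloured by experiment. Points are libraries and bars are means of 2. Ccr2 was at 92.0 RPKM or more and Cd69 at 14.9 or more in all 34 libraries, Cxcr3 was lowest among the fresh cells in trNK-T, and S1pr1, S1pr5 and Klf2 lay near 0 in most.

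The trNK subsets carried the only calls. A gene was called at an adjusted p below 0.05 (edgeR quasi-likelihood test, Benjamini-Hochberg adjustment over all genes tested) with a fold change above 2. Cxcr3, the receptor for interferon-induced chemokines, was at 147 and 122 RPKM in trNK-V, 54.2 and 39.7 in trNK-D, and 5.44 and 3.70 in trNK-T. The libraries of the 3 subsets did not overlap, and the level was lower in each further stage. From trNK-V to trNK-T Cxcr3 fell by 4.69 on the log2 scale (SE 0.28, edgeR adjusted p = 0.0025), and from trNK-D to trNK-T it fell by 3.28 (SE 0.27, adjusted p = 0.019). Between trNK-D and trNK-V the log2 fold change was -1.41 (SE 0.24, adjusted p = 0.25) and was not called, in a comparison where 0.00698% of genes were.

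The summed level of the 6 T cell genes, almost all of it from Cd3d, Cd3g and Trac, was also lower along the subsets, at 165 and 161 RPKM in trNK-V, 58.7 and 88.8 in trNK-D, and 31.9 and 28.0 in trNK-T. The sort had left out cells with CD3 or CD5 protein. The part of this RNA in the Cxcr3 values was not tested, and Cd3e was at 0 in both trNK-T libraries and in trNK-V replicate 1.

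Cxcr3 was 1 of 8 members called lower in trNK-T than in trNK-V, where 6.75% of 14335 genes were called and 3.40% were called lower. It was also the 1 member called lower in trNK-T than in trNK-D, where 0.0767% were called and 0.0628% were called lower. The first call held in all 7 other settings and without each of the 6 libraries, with adjusted p at most 0.014. The second was lost without trNK-T replicate 2 (adjusted p = 0.16), with limma-voom (0.079), and when only the groups compared were fitted (0.060).

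Ccr2, the receptor that brings monocytes and some NK cells to CCL2, was at 257 and 269 RPKM in trNK-V, 234 and 172 in trNK-D, and 149 and 92.0 in trNK-T. Its trNK-T libraries lay below all others of the experiment, with a log2 fold change against trNK-V of -0.95 (SE 0.24, edgeR adjusted p = 0.062). Under the study's filter on genes above 10 RPKM the value was -1.12 with an adjusted p of 0.020 and was called, as it was without trNK-T replicate 1 (-1.29, adjusted p = 0.046). Lyz2 was also lowest in trNK-T, while the summed level of its list of 5 genes was 147 and 368 RPKM in trNK-V, 348 and 488 in trNK-D, and 450 and 385 in trNK-T. The summed level of the 5 macrophage genes was 4.45 and 7.70, 18.1 and 13.4, and 2.02 and 0.546 RPKM in the same order. The sort had left out cells with Gr-1, whereas macrophage-like single cells, sorted by another gate, had the highest Ccr2 level of the classes (1132 CPM, UMIs of the gene per 1000000 UMIs). The part of myeloid RNA in the Ccr2 values was not tested.

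Cxcr6, a receptor of tissue-resident lymphocytes, was at 4.50 and 33.8 RPKM in trNK-V, 0 and 0.579 in trNK-D, and had no count in either trNK-T library. The gate had removed cells with CXCR6 protein from all 3 subsets, so these levels describe the cells left. With 3 counts per library as the floor, mean Cxcr6 was at least 164-fold lower in trNK-T than in trNK-V, a bound set by trNK-V replicate 2, and at least 38.4-fold lower from the lower trNK-V library alone. S1pr5, the exit receptor of circulating NK cells, was at 1.71 and 4.87 RPKM in trNK-V, 0 and 0.549 in trNK-D, and had no count in trNK-T, at least 36.4-fold lower than in trNK-V by the same floor and at least 18.9-fold lower from the lower trNK-V library alone. These bounds cover counting only and not the spread between libraries, and S1pr1 had 179 counts in 1 trNK-T library and none in the other. Neither Cxcr6 nor S1pr5 was called in the edgeR fit over the 3 subsets with its filter on low counts (adjusted p = 0.064 and 0.11). Both were called without that filter, by DESeq2, when only the groups compared were fitted, and without either trNK-D library, and Cxcr6 also with the replicate block.

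Cxcr4 was at 4.73 and 3.47 RPKM in trNK-V and between 0.187 and 1.01 RPKM in trNK-D and trNK-T, and the trNK-V libraries were the highest of the experiment. Its log2 fold change from trNK-V to trNK-T was -2.96 (SE 1.02, edgeR adjusted p = 0.12). The summed level of the 7 conventional NK genes, which include Ncr1 and Klrb1c of trNK, was also lower along the subsets, at 2205 and 2702 RPKM in trNK-V, 1987 and 1552 in trNK-D, and 1171 and 930 in trNK-T. Of its integrins that define conventional NK cells, Itga2 was at 3.74 and 5.09, 3.197 and 2.301, and 0.819 and 0.886 RPKM in the same order, and Itgam at 3.41 and 6.48, 6.97 and 1.96, and 1.15 and 0.252. The part of conventional NK cells in the S1pr5 and Cxcr4 values was not tested. Cd69 was at 57.7 and 77.3 RPKM in trNK-V, 65.8 and 51.4 in trNK-D, and 46.8 and 30.5 in trNK-T, with a log2 fold change from trNK-V to trNK-T of -0.62 (SE 0.25, adjusted p = 0.17). S1pr1 and Klf2 had libraries at 0 beside libraries above 1 RPKM, and their trNK-T and trNK-V libraries overlapped. In all, 6 of the 8 members lay lower in both trNK-T libraries than in both trNK-V libraries, beside 35.4% of the genes tested, and 7 of 8 did so for trNK-D against trNK-V, beside 24.9%.

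Of all genes tested, 3.40% were called lower in trNK-T than in trNK-V. Among the related genes, 3 of the 8 tested of the 9 genes around KLF2 and FOXO1 were called lower, and none higher. They included the forkhead factor Foxo3 at -2.55 (SE 0.45, edgeR adjusted p = 0.026) and the Kruppel-like factor Klf13 at -1.79 (SE 0.25, adjusted p = 0.016), both log2 fold changes. The median of the 8 was -1.31, against -0.05 over all genes tested. Of the 13 symbols listed for residency and receptor desensitisation, 12 were tested, and Adrbk1, an older symbol of the listed Grk2, matched no entry. Among these 12, Prdm1, the residency factor Blimp-1, was called higher at 1.96 (SE 0.41, edgeR adjusted p = 0.037). Zfp683, its relative Hobit, was called lower at -2.95 (SE 0.61, adjusted p = 0.038). The list median was -0.46. The calls of related genes were read in the main fit only and not under other settings. In the same comparison edgeR called none of 8 tested other chemokine receptors, 7 tested genes of sphingosine 1-phosphate receptors and metabolism, and 5 tested ligands.

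The gestation libraries gave no called member, where edgeR called 0.0356% of the genes tested at gd6.5 and 0.0356% at gd8.5 against virgin, and 0% between gd8.5 and gd6.5. Cxcr3 was at 187 and 53.2 RPKM in virgin mice, 23.9 and 40.2 in gd6.5 libraries, and 52.1 and 38.2 in those of gd8.5. Each pregnant library was below each virgin library, but gd8.5 replicate 1 and virgin replicate 2 were close. The log2 fold change was -1.91 at gd6.5 (SE 0.54, edgeR adjusted p = 0.16) and -1.38 at gd8.5 (SE 0.53, adjusted p = 0.46). Without virgin replicate 2 these were -2.50 (adjusted p = 0.0067) and -1.99 (adjusted p = 0.019) and were called. Without virgin replicate 1 they were -0.84 (adjusted p = 0.20) and -0.32 (adjusted p = 0.75), and no member was called. The summed level of the 6 T cell genes was 274 and 47.1 RPKM in virgin mice, 60.8 and 36.7 in gd6.5 libraries, and 156 and 170 in those of gd8.5. The same sort had left out cells with CD3 or CD5 protein, and the part of this RNA in the Cxcr3 values was not tested.

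Ccr2 was at 291 and 184 RPKM in virgin mice, 120 and 163 in gd6.5 libraries, and 147 and 132 in those of gd8.5, with log2 fold changes of -0.77 (SE 0.23, edgeR adjusted p = 0.17) and -0.76 (SE 0.23, adjusted p = 0.39). Without virgin replicate 2 the Ccr2 values were -0.99 (adjusted p = 0.018) and -1.004 (adjusted p = 0.026), of which the second was called, and without virgin replicate 1 they were -0.49 (adjusted p = 0.18) and -0.48 (adjusted p = 0.36). Cxcr4 was at 9.84 RPKM in virgin replicate 1 and between 0.101 and 0.669 in the other 5 libraries, so its value rested on 1 library. Its log2 fold change at gd6.5 was -3.93 (SE 1.38, edgeR adjusted p = 0.22), -1.08 without virgin replicate 1 (0.84) and -4.81 without replicate 2 (0.024, called). At gd8.5 it was -4.77 (SE 1.45, adjusted p = 0.39), -1.94 without virgin replicate 1 (0.76) and -5.67 without replicate 2 (0.025, called). Cd69 was at 50.1 and 48.4 RPKM in virgin mice, 33.8 and 34.5 in gd6.5 libraries, and 49.3 and 43.4 in those of gd8.5, with a log2 fold change at gd6.5 of -0.57 (SE 0.17, adjusted p = 0.17), and -0.61 and -0.51 without virgin replicates 1 and 2, not called. In the order virgin, gd6.5 and gd8.5, the summed level of the NK genes Ncr1, Klrb1c and Eomes was 1227 and 1212, 698 and 726, and 912 and 924 RPKM, and that of 4 interferon response genes 24.4 and 24.02, 2.73 and 2.18, and 13.4 and 13.9. Their part in the Ccr2 and Cd69 values was not tested. Klf2 was at 1.32 and 7.03 RPKM in virgin mice and between 0.195 and 0.998 in pregnant mice. Its log2 fold change was -2.86 at gd6.5 and -3.47 at gd8.5 (SE 1.21 and 1.26, edgeR adjusted p = 0.29 and 0.45), -3.62 and -4.24 without virgin replicate 1 (adjusted p = 0.10 and 0.18), and -1.08 and -1.70 without replicate 2 (0.70 and 0.54), none called. Cxcr6 overlapped, at 14.9 and 0.683 RPKM in virgin mice, 16.2 and 7.58 in gd6.5 libraries, and 0.0308 and 5.08 in those of gd8.5. S1pr1 and S1pr5 were above 0 in at most 1 library of each group. In the gd6.5 comparison 5 of 8 members were lower in every library, beside 20.1% of the genes tested, and at gd8.5 4 of 8 were, beside 17.9%. None was higher in every library, where 27.0% and 21.2% of the genes tested were.

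**Figure D2:**
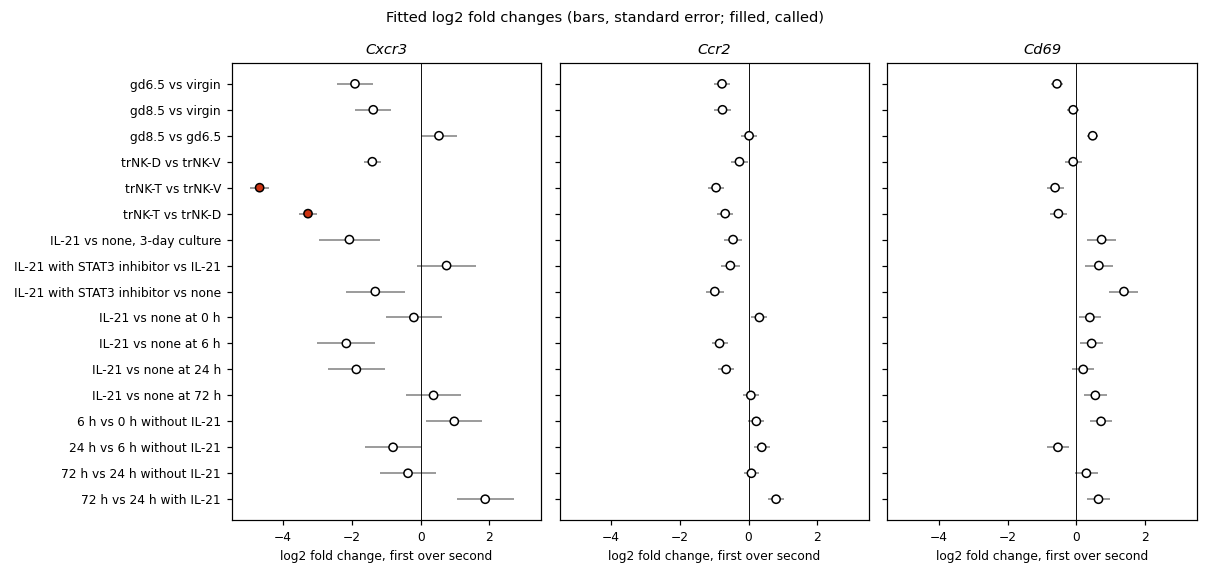
Fitted log2 fold changes of Cxcr3, Ccr2 and Cd69 (horizontal axis, first group over second) in the 17 comparisons (vertical axis), with standard errors as bars. Filled points passed the test, which were the Cxcr3 values of -4.69 and -3.28 for trNK-T, and open points did not.

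In the 3-day culture Cxcr3 was at 50.3 and 57.0 RPKM without IL-21, 2.46 and 20.1 with IL-21, and 10.7 and 22.5 with IL-21 and the inhibitor. Both IL-21 libraries lay below both without it, with a log2 fold change of -2.07 (SE 0.88, edgeR adjusted p = 0.94). The inhibitor libraries overlapped those with IL-21 alone. The NK receptor gene Ncr1 also differed between these groups, at 473 and 358 RPKM without IL-21, 146 and 156 with it, and 46.8 and 77.3 with the inhibitor. Klrb1c was at 552 and 509, 134 and 154, and 118 and 121 RPKM in the same order. Cd3e was at 0.930 and 1.09, 0.0402 and 6.42, and 6.27 and 2.53 RPKM. The part of a change in the cells cultured was not tested. Ccr2 was at 327 and 393 RPKM without IL-21, 214 and 229 with it, and 150 and 137 with IL-21 and the inhibitor, so the 3 groups did not overlap. The inhibitor value was below that of IL-21 alone, with a log2 fold change of -0.53 (SE 0.27, adjusted p = 0.46), and against no IL-21 the difference was -0.98 (SE 0.27, adjusted p = 0.21). Cd69 was at 25.0 and 14.9 RPKM without IL-21, 24.0 and 33.3 with it, and 32.6 and 49.6 with the inhibitor. Cxcr6 overlapped between IL-21 (16.7 and 52.9 RPKM) and no IL-21 (55.9 and 34.7). Of the low members, S1pr1 had counts in both inhibitor libraries (1.28 and 1.17 RPKM) and none with IL-21 alone.

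In the time course the 2 groups at 0 h carry different labels, although no time in culture had passed. There Cxcr3 was at 31.1 and 26.5 RPKM without IL-21 and at 11.1 and 45.1 in the libraries labelled with it. At 6 h Cxcr3 was at 88.7 and 33.96 RPKM without IL-21 and 14.5 and 12.3 with it, a log2 fold change of -2.16 (SE 0.84, edgeR adjusted p = 1.0). At 24 h it was at 34.2 and 30.0 RPKM without and 11.3 and 7.75 with IL-21, a log2 fold change of -1.87 (SE 0.83, adjusted p = 0.93). The groups did not overlap at either time. Ncr1 was also lower with IL-21, at 978 and 896 RPKM without and 454 and 489 with it at 6 h, and at 1030 and 948 without and 684 and 668 with it at 24 h, and its part was not tested. At 72 h the libraries spread widely (39.3 and 4.44 without, 50.3 and 12.9 with IL-21) and overlapped. The IL-21 effect at 72 h minus that at 6 h was 2.54 for Cxcr3 (SE 1.16, adjusted p = 0.34) and 0.91 for Ccr2 (SE 0.33, adjusted p = 0.21), and neither was called.

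Ccr2 was at 215 and 212 RPKM at 6 h without IL-21 and 113 and 127 with it, a log2 fold change of -0.84 (SE 0.23, edgeR adjusted p = 0.44), and at 24 h at 285 and 237 without and 178 and 179 with it, -0.65 (SE 0.23, adjusted p = 0.77). The Ncr1 level given above was also lower with IL-21 at 6 and 24 h, and its part in the Ccr2 values was not tested. At 72 h the Ccr2 groups overlapped, at 222 and 234 RPKM without IL-21 and 230 and 271 with it. The Cxcr3 and Ccr2 libraries with IL-21 were thus the lower ones at 6 and 24 h and in the 3-day culture, with no value called. The 72 h time point is as long as that culture. There the log2 fold change was 0.37 for Cxcr3 (SE 0.81) and 0.07 for Ccr2 (SE 0.23), neither called. The share of all genes without overlap in these comparisons is not given here.

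Cxcr6 had its highest levels in culture. It was at 2.30 and 7.29 RPKM at 0 h, 25.8 and 14.2 at 6 h, 14.8 and 39.9 at 24 h, and 83.5 and 6.68 at 72 h without IL-21. With IL-21 it was at 33.1 and 38.3 RPKM at 6 h, 21.2 and 16.7 at 24 h, and 106 and 87.8 at 72 h. From 24 to 72 h with IL-21 its log2 fold change was 2.63 (SE 0.90, edgeR adjusted p = 0.19), and DESeq2 called it (2.63, adjusted p = 0.026). Between the same groups the summed level of the T cell genes went from 78.2 and 88.3 to 183 and 170 RPKM, that of the conventional NK genes from 1633 and 1826 to 3559 and 3952, and that of the genes of dividing cells from 355 and 324 to 71.3 and 31.2. Their part in the Cxcr6 values was not tested. Cd69 was at 48.8 and 37.8 RPKM at 6 h without and 57.9 and 59.7 with IL-21, and at 31.7 and 24.7 at 72 h without and 42.9 and 43.9 with it. Its IL-21 libraries were the higher ones at 6, 24 and 72 h, with log2 fold changes of 0.44, 0.20 and 0.55 (SE 0.33 each), none called. At 24 h the sign rests on IL-21 replicate 2, without which the fold change was -0.00042. S1pr1, S1pr5 and Klf2 stayed at or below 0.423 RPKM in all 16 time course libraries, and Cxcr4 at or below 1.19.

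**Figure D3:**
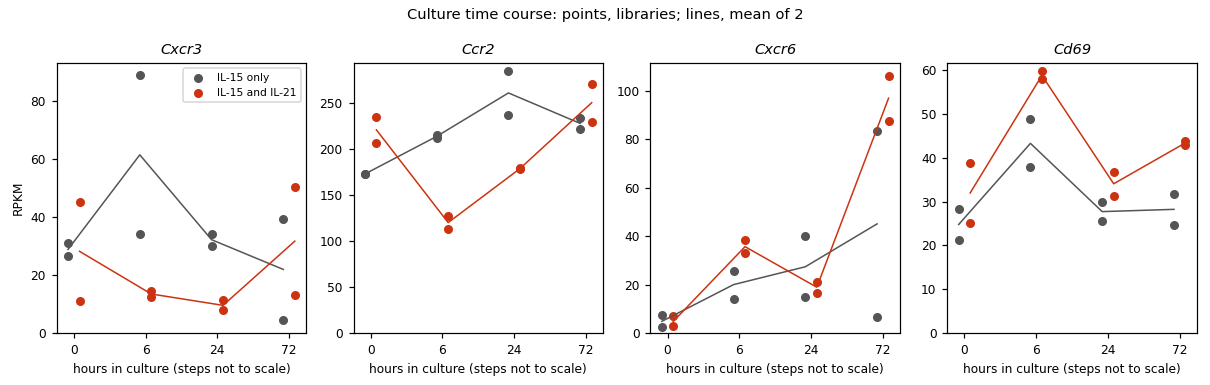
Cxcr3, Ccr2, Cxcr6 and Cd69 in RPKM (vertical axes, from 0) at 0, 6, 24 and 72 h of culture (horizontal axis, steps not to scale) with IL-15 only (grey) or with IL-15 and IL-21 (red). Points are libraries and lines join means of 2. Cxcr3 and Ccr2 were lower with IL-21 at 6 and 24 h, and Cxcr6 was highest at 72 h with IL-21 (106 and 87.8 RPKM).

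No member was called by edgeR in 15 of the 17 comparisons. Of all genes tested, edgeR called 0% with IL-21 in the 3-day culture, 0.00733% for the inhibitor against IL-21 alone and 0.154% for the inhibitor against no IL-21. With IL-21 it called 0% at 0 h, 0.0672% at 6 h, 0.00672% at 24 h and 5.07% at 72 h. Between times without IL-21 it called 0% from 0 to 6 h and from 6 to 24 h and 7.68% from 24 to 72 h, and with IL-21 it called 2.31% from 24 to 72 h. For the IL-21 effect at 72 h minus that at 6 h it called 2.47%, no member among them. Over the 114 member values tested in these, 22 had an unadjusted p below 0.05, DESeq2 called 6 and limma-voom 0. The shares of all genes at the same limits are not given here, so these counts are not a result about the members. All 8 members were tested in the subsets and the time course, but S1pr1 could not be tested in the gestation libraries nor Klf2 in the 3-day culture, because of low counts. Among the listed related genes in culture, Rgs1, which dampens signalling of chemokine and sphingosine 1-phosphate receptors, was the 1 gene called. It was lower with IL-21 at 72 h (log2 fold change -1.12, SE 0.29, edgeR adjusted p = 0.046) and higher at 72 h than at 24 h without IL-21 (1.27, SE 0.29, adjusted p = 0.020). Its list had 12 tested genes beside those of the other lists, and 5.07% and 7.68% of all genes were called in these comparisons. The call of 1 gene is thus not a result about the lists.

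The genes most like each member across the 34 libraries, after centring each experiment, were found by Pearson's r of log2(RPKM + 1) over 11995 genes, as a description. For Cxcr3 these were Il16, Adgre5 and Smad3 (r = 0.892, 0.874 and 0.850), for Ccr2 Rabgap1l, Stap1 and Klrb1f (0.901, 0.891 and 0.884), and for Cxcr4 Sh3kbp1, Trib2 and Klrc1 (0.830, 0.811 and 0.791). The highest values were lower for Cd69 (Dusp1 0.691, Gclm 0.689, Atp6v1g1 0.659) and Cxcr6 (Rhoh 0.705, Cd244a 0.679, Traf5 0.661). Those of S1pr5 (Acad12 0.787, Tfe3 0.785, Rab43 0.778), S1pr1 (Cd302 0.712, Fry 0.704, 4930444A19Rik 0.675) and Klf2 (Gm36933 0.578, Bambi 0.578, Gnas 0.569) rest on the few libraries with counts. The libraries share experiment, depth and sorting, so r describes these libraries only.

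In the single-cell tables, 8907 of 15175 cells had 200 to 2500 detected genes and under 10% mitochondrial UMIs, with a median of 2576 UMIs. They formed 16 clusters when clustered without the members. By the markers, 6 clusters with 4984 cells were trNK-like, 56.0% of the kept cells (54.9 to 57.0, an exact binomial 95% interval), and 1 with 958 cells was like conventional NK cells (cNK-like, with Itga2 and Itgam and little Itga1). The naming rules had no step for ILC1, which the paper set apart among its own single cells. A cluster with Ncr1, Klrb1c and Itga1 was named trNK-like whether or not it had Eomes, so that class could hold ILC1. The pooled tables count as 1 sample, so levels are CPM (summed UMIs of a gene per 1000000 summed UMIs of the cells) with exact Poisson 95% intervals, which cover counting error only, and no test was made.

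S1pr5 marked the cNK-like cells. It was at 350 CPM there (interval 323 to 378, 638 UMIs), against 3.14 (2.39 to 4.05) in trNK-like cells, a ratio of 111 (85.2 to 148). The ratio ranged from 15.5, with the limits read as UMIs per cell, to 199, with no upper limit. At least 1 UMI was seen in 42.8% of cNK-like cells and 0.943% of trNK-like cells, and in 0 of 212 stromal-like cells. It was also seen in 5.49% of erythroid-like cells (23.2 CPM) and 1.32% of B-like cells (7.97 CPM). The trNK-like level, the base of the ratio, thus cannot be told from free RNA. The only other class with a high level was the monocyte-like cluster 13 at 194 (153 to 244). The mast cell genes Cma1, Mcpt4, Tpsb2 and Cpa3 were among the leading genes of the cNK-like cluster, with 73.6% of their UMIs there in 6 cells. In the 524 cNK-like cells with no UMI of these genes, a subset chosen after the data were seen, S1pr5 was at 326 (292 to 363) and Klf2 at 613 (566 to 664).

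Klf2 was at 725 CPM (686 to 765) in cNK-like cells and 35.2 (32.6 to 38.0) in trNK-like cells, a ratio of 20.6 (18.7 to 22.6), which was 7.30 with limits on UMIs per cell and 36.2 with no upper limit. It was at 457 in neutrophil or monocyte-like, 448 in T-like, 414 in B-like and 244 in macrophage-like cells. Stromal-like cells held 201 and erythroid-like cells 139, above the trNK-like level. S1pr1 was highest in T-like cells at 307 (268 to 350) and B-like cells at 215 (180 to 255). It was at 16.4 (11.1 to 23.5) in cNK-like cells and 0.745 (0.407 to 1.25) in trNK-like cells, from 30 and 14 UMIs, a ratio of 22.1 (11.3 to 45.0), which was 4.66 with limits on UMIs per cell and 38.0 with no upper limit. Cxcr4, the receptor for CXCL12, was at 107 (92.9 to 124) in cNK-like and 27.3 (24.9 to 29.7) in trNK-like cells, a ratio of 3.94 that was 1.34 and 7.56 under these settings, and was highest, among clusters of at least 50 cells, in B-like cells at 456. Stromal-like cells held Cxcr4 at 28.3, close to the pooled trNK-like level. Among the trNK-like clusters, cluster 2 was at 88.7 (79.4 to 98.8) and clusters 3 and 6 were at 4.28 and 1.14. The part of free RNA in the pooled Cxcr4 level was not tested.

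Cxcr3 and Cxcr6 went the other way. Cxcr3 was at 16.4 CPM (11.1 to 23.5) in cNK-like and 35.8 (33.2 to 38.6) in trNK-like cells, a ratio of 0.459 (0.307 to 0.661), and Cxcr6 at 4.38 (1.89 to 8.64) and 24.7 (22.5 to 27.1), a ratio of 0.178 (0.0762 to 0.353). Without the upper limit on genes per cell the Cxcr3 ratio was 0.927 (0.642 to 1.30) and that of Cxcr6 0.558 (0.277 to 1.01), so both intervals included 1 once large cells were kept. With limits on UMIs per cell the ratios were 0.190 (0.116 to 0.296) and 0.0433 (0.0139 to 0.102). The cNK-like Cxcr3 level was close to those of stromal-like (12.4) and erythroid-like cells (19.4), which should lack it. In trNK-like clusters 3 and 6 Cxcr3 was at 3.92 and 1.42. The pooled trNK-like Cxcr6 level lay beside 22.3 in B-like and 17.7 in stromal-like cells, and beside 1.07 and 0.568 in clusters 3 and 6. The part of free RNA in these levels was not tested. The single-cell gate did not leave out cells with CXCR6, unlike that of the bulk libraries, and the naming rules had no step for ILC1. The part of ILC1 in the Cxcr3 and Cxcr6 levels of the trNK-like class and its clusters was not tested. Ccr2 was at 452 (421 to 484) in cNK-like and 748 (736 to 760) in trNK-like cells, while stromal-like, B-like and erythroid-like cells held 180, 161 and 263. Cd69 was at 180 (161 to 200) and 167 (161 to 173), a ratio of 1.08 (0.958 to 1.21). The Cd69 ratio was 0.816 (0.703 to 0.944) with limits on UMIs per cell and 1.13 (1.01 to 1.26) with no upper limit, so its direction depended on the limits.

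**Figure D4:**
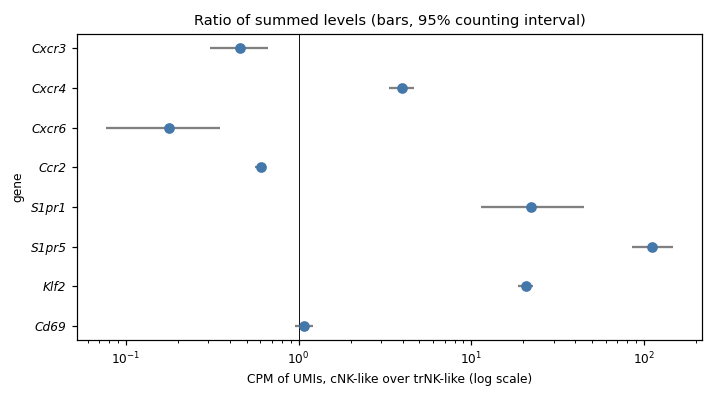
Ratio of CPM in 958 cNK-like over 4984 trNK-like cells (horizontal log axis) for the 8 genes (vertical axis), with exact 95% counting intervals as bars. S1pr5 (111), S1pr1 (22.1), Klf2 (20.6) and Cxcr4 (3.94) were above 1, Cxcr3, Cxcr6 and Ccr2 below it, and the Cd69 interval included it, although it lay below 1 with limits on UMIs per cell and above 1 with no upper limit.

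The trNK-like clusters differed widely among themselves. Clusters 1 and 2, led by Cd7 and Xcl1, held Cxcr3 at 82.8 (73.6 to 92.7) and 68.9 (60.7 to 77.9), Cxcr6 at 50.5 and 57.4, and Ccr2 at 957 and 1221 CPM. The leading genes of cluster 1 also included Snord13, a small nucleolar RNA, and the heat shock genes Hspb1 and Hspa1b, and the part of RNA quality in its values was not tested. Cluster 3, led by the granzymes Gzmf, Gzmc, Gzme and Gzmd, held Cxcr3 at 3.92 (2.46 to 5.94), Cxcr6 at 1.07 and Ccr2 at 723. Cluster 6, led by Scin, Ctsg and Epas1 as in terminal trNK, held Cxcr3 at 1.42 (0.461 to 3.31), from 5 UMIs, Cxcr6 at 0.568 and Ccr2 at 188 (174 to 203). That Ccr2 level was within the range of the stromal-like, B-like and erythroid-like cells, so the single cells alone cannot tell it from free RNA.

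Klf2 was at 113 (102 to 124) in cluster 1, 30.6 in cluster 2, 8.02 in cluster 3 and 5.96 in cluster 6, and Cxcr4 at 29.7, 88.7, 4.28 and 1.14. Cd69 was at 257 and 197 in clusters 1 and 2 and at 132 and 88.6 in clusters 3 and 6, and it reached 1022 (883 to 1177) in the 80 cells of cluster 15, led by the interferon response genes Cxcl10, Ifit1 and Mx1. That cluster also held the highest Cxcr3 level, 121 (76.8 to 182), and Cxcr6 at 216 (155 to 293), beside 225 (192 to 263) in T-like cells. In the dividing cluster 8 Cxcr3, at 31.9, lay between clusters 1 and 2 and clusters 3 and 6. Its Ccr2, at 563, was below that of clusters 1, 2 and 3 and above that of cluster 6. S1pr1 and S1pr5 were at or below 5.83 in each of the 6 trNK-like clusters. Median UMIs were 2267 and 2599 in clusters 1 and 2 and 5076 and 5689 in clusters 3 and 6. CPM is a share of all UMIs of a cluster, so a level can be lower in CPM without being lower per cell. Clusters 1, 2, 3 and 6 held 1324, 1272, 1175 and 646 cells. In that order Cd69 had 926, 736, 740 and 312 UMIs, Ccr2 3445, 4555, 4057 and 662, and Cxcr3 298, 257, 22 and 5. The part of the larger totals in the lower CPM was not tested.

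**Figure D5:**
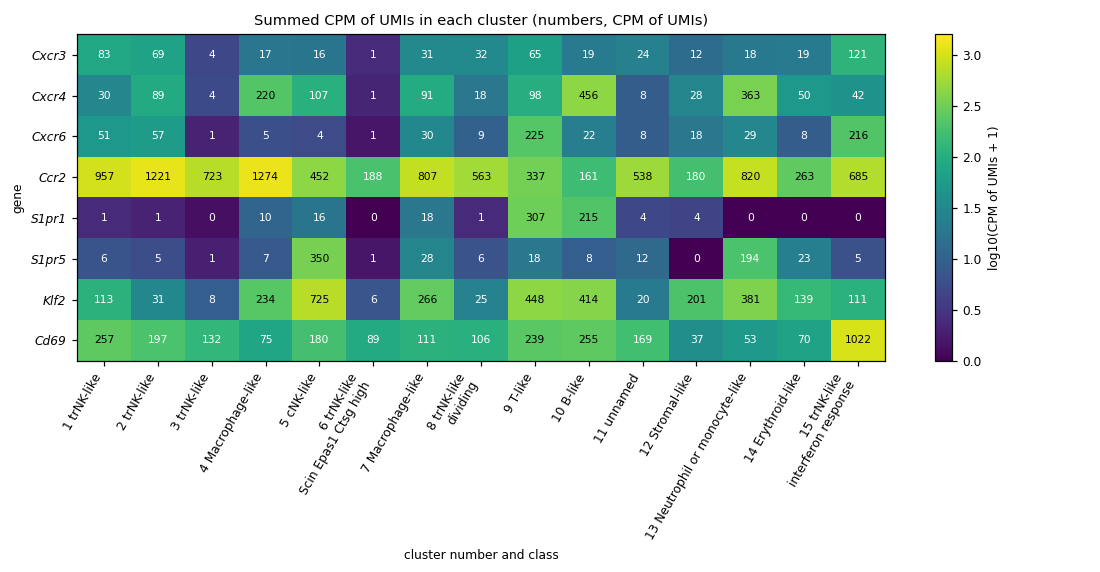
CPM, from summed UMIs, of the 8 genes (vertical axis) in the 15 clusters of at least 50 cells (horizontal axis, cluster number and class), coloured on a log10 scale and printed as whole numbers. S1pr5 and Klf2 were high in the cNK-like cluster 5, S1pr1 in T-like and B-like clusters, and Cxcr3 and Cxcr6 were lower in trNK-like clusters 3 and 6 than in clusters 1 and 2.

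The ligands sat mostly in other cells of the same table. Cxcl12 was at 680 CPM in stromal-like cells and at most 3.93 in each other cluster. Cxcl16 was at 519 and 179 in the macrophage-like clusters 4 and 7, Ccl2 at 570 and 385, and Ccl12 at 879 and 530. Cxcl10, the interferon-induced ligand of CXCR3, was at 380 in cluster 4 and at 3630 in the interferon response cluster 15. Of the other chemokine receptors, Cx3cr1 was at 195 in cNK-like cells and at most 15.8 in trNK-like clusters.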

How the data were processed

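Bulk values were raw counts per gene, whole numbers that the authors deposited with each gene's exons, strand and length on mm10 (GRCm38). The methods name HISAT2 (version 2.1.0 in the submitters' processing notes) and RSEM, and the processing notes name featureCounts from Subread. Fresh cells and the 3-day culture were prepared with SMART-Seq HT and NEBNext Ultra kits, and the time course with Vazyme kits, so levels were tested only within an experiment. The single-cell values were UMI counts the authors deposited, made with the Rhapsody WTA pipeline of BD against GRCm39 and not normalized, in 2 tables of the same 15175 cells with different genes, joined by barcode.

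RPKM used the deposited gene lengths and library totals. Genes kept by filterByExpr (13647 to 14879 per experiment) were tested, after TMM scaling, with edgeR 4.0.16 (quasi-likelihood, 1 fit per experiment, no covariates, Benjamini-Hochberg adjustment) in R 4.3.3. Each standard error is the absolute log2 fold change over the square root of F. Biological coefficients of variation (common value of the fit) were 0.544 for gestation, 0.589 for subsets, 0.792 for the 3-day culture and 0.909 for the time course. A fold was given where both libraries of 1 group and at least 1 of the other held over 3 counts, and a group at 0 was set to 3 counts per library for a bound. A run on simulated data checked only that the median fitted fold was near the fold put in. How many of those changes were called is not given here, so the run does not say how many true changes the tests miss. DESeq2 1.42.0, limma-voom (limma 3.58.1), other filters and scalings, a replicate block and the removal of each library were alternatives. The replicate libraries of each group differed by more than sampling noise.

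Cells were clustered with scanpy 1.11.5 (2000 variable genes without the members and list genes, 20 components, 20 neighbours, Leiden resolution 0.8). The methods word the limits of 200 and 2500 as UMI counts, and they were read here as genes per cell, the other reading being an alternative. Classes were named from marker lists with thresholds set after the clusters had been seen (3 markers at 3-fold above other cells with at least 10 UMIs, or, for NK cells, markers at 2-fold over B-like clusters). Scrublet marked 1 of 8907 cells (0.011%) and so did not work, and no doublet was removed. The 8 members, the 60 related gene symbols in 5 lists (with both Grk2 and its older symbol Adrbk1) and the tests were chosen with earlier results of these data known. Related genes were named where called, at most 3 in each direction per list and comparison, and some of them are not reported here. In addition, the 3 genes most like each member were named, and Gzmc, marker genes and single-cell ligands were named after their values were seen. Chromatin accessibility libraries were not analysed here.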

Additional observations from a re-analysis of the deposited data

Results flagged for a closer look

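Ccr2 differed in sign between IL-21 and no IL-21 at different times, and no value was called. Both libraries labelled with IL-21 at 0 h lay above both without it (log2 fold change 0.31), whereas both lay below at 6 h (-0.84), at 24 h (-0.65) and in the 3-day culture (-0.45). At 72 h of the time course, as long as the 3-day culture, the value was 0.07 and the groups overlapped. The differences of 0 h from the other times were not tested. At 0 h no time in culture had passed.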

How the results depend on the processing

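Each comparison was counted once per alternative setting. In this way 287 counts of called members stayed within 1.5 times the main count and 36 did not. The main fit called no member in 15 comparisons, so many of the 287 are a count of 0 that stayed 0. The fold changes printed were also each counted once per alternative. Of these pairs 462 kept their direction and side of the threshold, 27 passed it only under the alternative, 3 no longer passed and 1 changed sign. With no filter on low counts, members called numbered 3 at gd6.5 and 2 at gd8.5 against virgin, 1 for gd8.5 against gd6.5, 2 for trNK-D against trNK-V, 3 for trNK-T against trNK-V (Cxcr3, Cxcr6 and S1pr5), 2 for trNK-T against trNK-D, 1 each for IL-21 in the 3-day culture, the inhibitor against no IL-21, IL-21 at 6 h and the IL-21 effect at 72 h minus 6 h, and 2 for 72 h against 24 h with IL-21. DESeq2 called 2, 1, 1 and 4 for gd6.5 and gd8.5 against virgin, trNK-D against trNK-V and trNK-T against trNK-V, and 1 each for the inhibitor against no IL-21 and for 72 h against 24 h with IL-21. For trNK-T against trNK-V the RPKM filter called 2 members and the fit of only the groups compared 3. For trNK-T against trNK-D, limma-voom and the fit of only the groups compared called 0, and that fit called 1 at 24 h with IL-21. The cause of these shifts was not tested. Numbers of all genes called under these settings are given below for the trNK-T comparisons only, where no filter and DESeq2 also called more of all genes. The counts of members here and in the fits without single libraries are thus not a result about the members.

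Leaving out single libraries gave 0 to 2 called members at gd6.5 and 0 to 3 at gd8.5 against virgin, 1 to 3 for trNK-T against trNK-V, 0 to 1 for trNK-T against trNK-D, 0 to 2 for IL-21 at 72 h, and 0 to 1 for 72 h against 24 h without and with IL-21 and for the IL-21 effect at 72 h minus 6 h. The additions came without virgin replicate 2, without trNK-D replicates 1 or 2, without trNK-T replicate 1, and without 72 h replicates. The log2 fold change of Cd69 with IL-21 at 24 h ranged from -0.00042, without IL-21 replicate 2, to 0.36, without IL-21 replicate 1, against 0.20 with both. A lone library is assumed to vary like the other groups. Genes called in all for trNK-T against trNK-V numbered 968, but 2022 with no filter, 2103 with DESeq2, and 87 without trNK-T replicate 2. For trNK-T against trNK-D they numbered 11, but 82 with the RPKM filter, 587 with no filter, 449 with DESeq2, 3 with limma-voom and 0 without trNK-T replicate 2.

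The labels do not say whether libraries with the same replicate number share a preparation. Deviations of same-numbered libraries correlated between -0.10 and 0.20, so a shared preparation cannot be told from these values. With the replicate block, members called for trNK-T against trNK-V numbered 2 (Cxcr3 and Cxcr6), and no other count of members changed. The trNK-like share was 56.0% and became 48.4% with limits on UMIs per cell, 47.8% with no upper limit and 59.2% at Leiden resolution 0.4. Of the single-cell values, each counted once per alternative, 25 stayed within their counting interval and 19 did not.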
